A study of Mus musculus with 16 samples.

Results

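The 10 CC chemokine genes Ccl2, Ccl3, Ccl4, Ccl5, Ccl6, Ccl7, Ccl8, Ccl9, Ccl12 and Ccl24 were taken by their symbols from the 53700 gene rows counted in sorted mouse microglia. All 10 had enough reads to be tested, among 17090 tested genes in all. Microglia are the brain's own macrophages. Bulk RNA was sequenced from 16 libraries in 4 groups of 4, namely Ercc1 knockout (KO) mice at 6 weeks, control (WT) mice at 6 weeks, KO mice at 12 weeks and WT mice at 12 weeks. The Ercc1 protein is part of an endonuclease that repairs DNA. Every mouse came from a cross of C57Bl6J and FVB, and the cells were sorted from whole brain as DAPI-negative, CD11b-high, CD45-intermediate and Ly6c-negative. The labels give the genotypes as ko and wt only, so the alleles, and whether the gene was lost in the whole animal, are not stated. By the sex labels, KO and WT groups matched at each age, with 2 males and 2 females per group at 6 weeks and 3 males to 1 female per group at 12 weeks. One 12-week WT library carries the number 5_6, and the labels do not say whether it pools animals. Nor do they say that each library is 1 animal, so the p-values measure the spread between these libraries.

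CC chemokines are small secreted proteins with a pair of adjacent cysteines near the amino terminus, and they direct leukocytes through G protein-coupled receptors. Ccl2, Ccl7, Ccl8 and Ccl12 are the monocyte chemoattractants of the mouse, with Ccr2 as the best known receptor of Ccl2, Ccl7 and Ccl12. Ccl3 and Ccl4 are the macrophage inflammatory proteins 1 alpha and 1 beta, and Ccl3 and Ccl5 signal through Ccr1. Ccl6 and Ccl9 are rodent chemokines that also act through Ccr1, and Ccl24, or eotaxin-2, acts through the eosinophil receptor Ccr3. In the brain, microglia and macrophages are known sources of several of these ligands during inflammation and injury.

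All of the genes but Ccl24 lie on mouse chromosome 11, and Ccl24 lies on chromosome 5. In the GENCODE M21 annotation, which belongs to the build before the one used for counting, Ccl2, Ccl7, Ccl12 and Ccl8 stand in a row interrupted by Ccl11 alone. Ccl5, Ccl9, Ccl6, Ccl3 and Ccl4 form a further row, interrupted by the ribosomal protein pseudogene Rpl9-ps1. Coding sequences within a row shared 68.1% of aligned bases for Ccl3 and Ccl4, 65.1% for Ccl8 and Ccl12 and also for Ccl6 and Ccl9, and 63.7% for Ccl7 and Ccl8. No stretch of 50 bases was shared between any of the 10 transcripts. On the opposite strand, Gm17268 overlaps Ccl2 and E230016K23Rik overlaps Ccl6, and reads of overlapping genes cannot be told apart without a stated strand setting.

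Promoters of 5 of the 10 genes could be matched in the RefSeq table of build GRCm38.p6. The 4 printed here are those of Ccl12 and Ccl8, neighbours that were among the genes with the widest KO to WT ratios, of Ccl3, and of Ccl9, whose KO and WT levels overlapped. Each is the 250 bases before the annotated start, 5′ to 3′ on the gene's own strand, at chr11:82101595-82101844 (plus) for Ccl12, chr11:82114935-82115184 (plus) for Ccl8, chr11:83649379-83649628 (minus) for Ccl3 and chr11:83578637-83578886 (minus) for Ccl9. Capitals mark matches to the motifs named after the sequences.
Ccl12: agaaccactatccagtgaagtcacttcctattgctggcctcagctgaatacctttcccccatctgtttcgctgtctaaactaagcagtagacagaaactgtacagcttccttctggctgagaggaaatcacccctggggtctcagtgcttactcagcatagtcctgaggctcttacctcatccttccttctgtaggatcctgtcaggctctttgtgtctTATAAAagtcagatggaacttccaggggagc
Ccl8: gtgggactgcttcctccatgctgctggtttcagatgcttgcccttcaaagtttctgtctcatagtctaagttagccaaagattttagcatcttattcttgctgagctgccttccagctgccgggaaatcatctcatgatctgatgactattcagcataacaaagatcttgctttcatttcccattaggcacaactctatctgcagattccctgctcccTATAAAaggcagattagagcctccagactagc
Ccl3: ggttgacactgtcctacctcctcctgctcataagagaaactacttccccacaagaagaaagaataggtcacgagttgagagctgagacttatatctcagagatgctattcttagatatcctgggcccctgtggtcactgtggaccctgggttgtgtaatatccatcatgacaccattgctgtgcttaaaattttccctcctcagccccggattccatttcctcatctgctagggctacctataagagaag
Ccl9: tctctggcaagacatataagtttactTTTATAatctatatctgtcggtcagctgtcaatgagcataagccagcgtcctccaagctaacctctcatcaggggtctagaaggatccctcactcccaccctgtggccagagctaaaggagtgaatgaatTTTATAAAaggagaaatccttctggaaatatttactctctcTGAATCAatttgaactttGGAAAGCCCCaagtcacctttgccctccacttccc
Both strands of the 300 bases that run from 250 before to 50 after the start were searched for the TATA box (TATAAA), the interferon-stimulated response element (GAAA, any 2 bases, GAAA), the gamma-activated site (TTCNNNGAA), the AP-1 site (TGANTCA) and the kappa B site. TATAAA began 31 bases before the start of Ccl12 and 32 bases before that of Ccl8, and 13.6% of 32544 promoters of this length hold it. Ccl9 held TATAAA further upstream, an AP-1 match (TGAATCA) at 53 bases and a kappa B match (GGAAAGCCCC) at 35 bases before its start, which 7.79% and 4.53% of all promoters also have. The TATA motif was added to the search after the sequences had been seen. The response element and the gamma-activated site, found in 3.45% and 8.33% of all promoters, had no match in the 5 windows, and Ccl3 matched none of the 5 motifs. The aligned 300-base windows of Ccl12 and Ccl8 were identical at 54.9% of positions, against 45.03% to 50.8% for the other pairs of the 5.

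Libraries held 7882182 to 9653663 counts in 12-week KO microglia and 9045823 to 22142972 in 12-week WT microglia, with 9885121 to 17499408 in 6-week KO and 8250645 to 13278797 in 6-week WT microglia. Levels are given as CPM, the count of a gene scaled to a common library total of 1000000 after TMM normalization. Ercc1 averaged 3.62 ± 0.80 CPM in KO and 18.8 ± 7.89 CPM in WT microglia at 6 weeks, and 4.27 ± 2.80 CPM in KO and 20.7 ± 19.2 CPM in WT microglia at 12 weeks (SD, n = 4 each). The KO and WT levels of Ercc1 did not overlap at either age, but the difference did not pass the edgeR test used below, with log2 fold changes of -2.31 and -2.22 and adjusted p-values of 0.209 and 0.105 for the younger and the older mice. The 12-week WT replicates 3 and 8 and the 12-week KO replicate 4 stood apart on the second principal component or on the third. The 12-week WT library 5_6, labelled male, had 339 CPM of Xist beside 109 CPM of Y-linked genes. Libraries labelled female had 409 to 597 CPM of Xist, so the male label, which the fit used, does not cover all RNA of library 5_6. All 13 microglia markers were expressed in every group, with a summed level of 68510 to 81110 CPM in KO and 83050 to 90200 CPM in WT microglia at 6 weeks, and 58650 to 61620 CPM in KO and 75130 to 83950 CPM in WT microglia at 12 weeks. The sum was thus lower in KO microglia with no overlap at either age. By edgeR 1 of the 13 fell at 6 weeks (P2ry12) and 6 fell at 12 weeks, among them P2ry12 (log2 fold change -0.81), Gpr34 (-0.73) and P2ry13 (-0.67), where DESeq2 called 4 and 8, all lower. The part of this marker difference in the chemokine differences was not tested. Mitochondrial genes took 0.328% to 0.405% of counts in KO and 0.182% to 0.253% in WT microglia at 6 weeks, and 0.491% to 0.680% in KO and 0.276% to 0.385% in WT microglia at 12 weeks. Whether that difference bears on any chemokine result was not tested.

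Summed CC chemokine CPM was 2.45 times higher in KO than in WT microglia at 6 weeks and 3.25 times higher at 12 weeks. The sum is not scaled to transcript length, and its genes differed widely. At 6 weeks 7 of the 10 genes rose and none fell (edgeR quasi-likelihood test, Benjamini-Hochberg adjusted p under 0.05), where 0.872% of all tested genes were called with 0.796% higher and 0.0761% lower. At 12 weeks 6 of the 10 rose and none fell, where 2.98% of all genes were called with 2.03% higher and 0.954% lower. Ccl2, Ccl3, Ccl4, Ccl5, Ccl8 and Ccl12 rose at both ages, and Ccl6 passed the test at 6 weeks. The median log2 fold change of the 10 genes was 2.80 at 6 weeks and 3.36 at 12 weeks, beside medians over all tested genes of -0.02 and -0.03. KO and WT libraries did not overlap, with KO higher, for 8 of the 10 at 6 weeks (4.91% of all genes) and for 8 of the 10 at 12 weeks (5.13%). The exceptions at both ages were Ccl9 and Ccl24. With the 12-week WT replicates 3 and 8 left out, chosen after the data were seen, 7 genes passed at 6 weeks and 6 at 12 weeks. With the 12-week KO replicate 4 also left out the counts were 7 and 5.

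**Figure D1:**
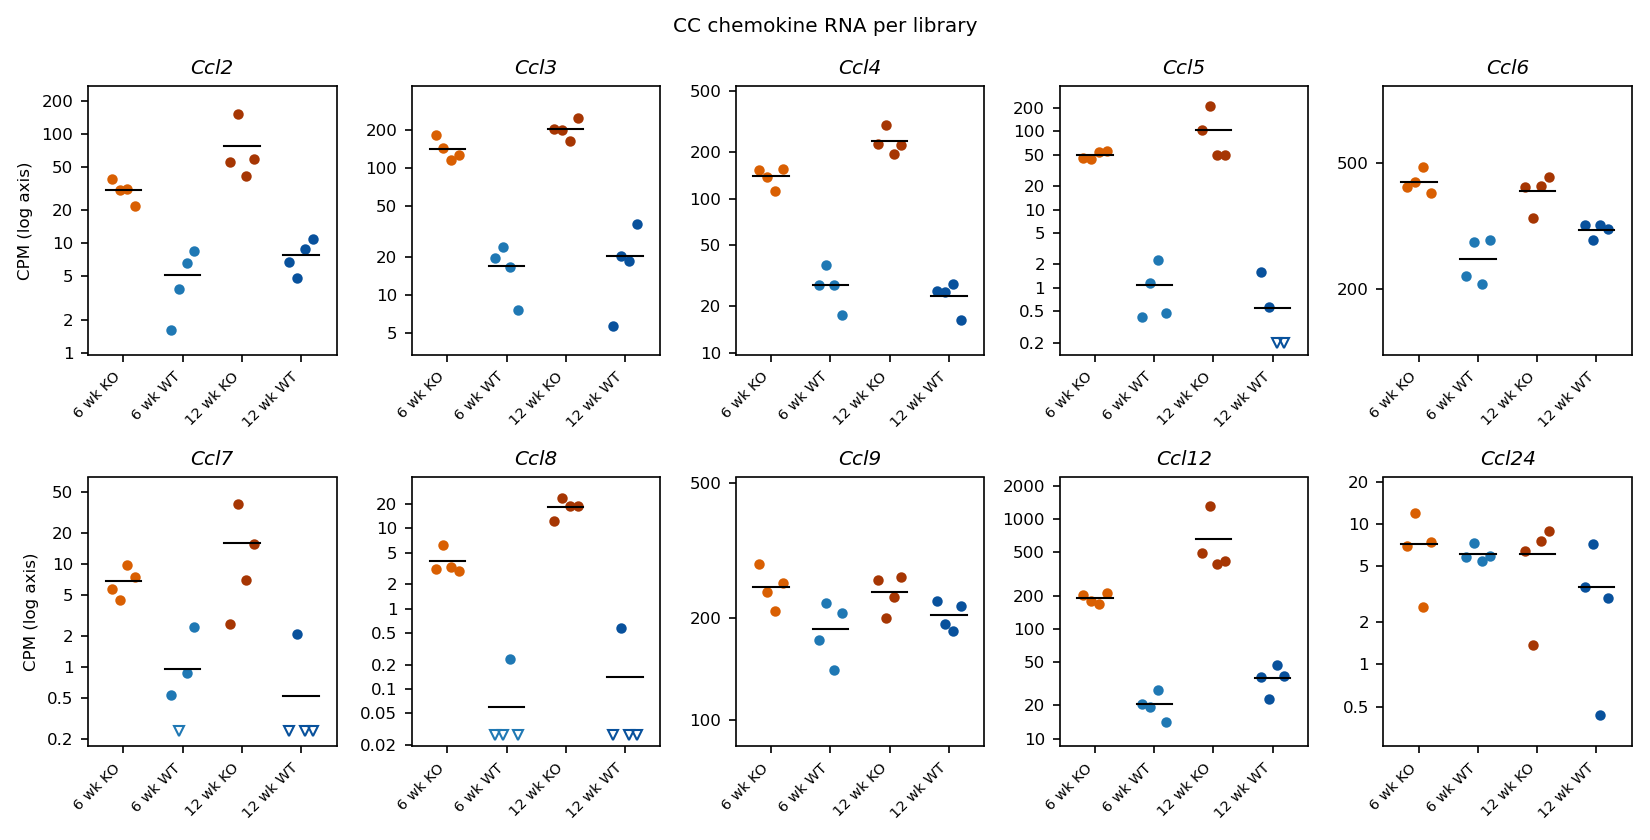
CC chemokine RNA in each of the 16 libraries, in CPM on log axes that differ between panels. Filled points are libraries, black lines are group means (n = 4), and open triangles at the foot are libraries with 0 counts. Libraries of KO and WT microglia separate at both ages for all genes but Ccl9 and Ccl24.

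Summed over the 10 genes, chemokine counts averaged 1253 ± 66.8 CPM in KO and 511 ± 73.0 CPM in WT microglia at 6 weeks. At 12 weeks the sums were 1957 ± 559 CPM in KO and 603 ± 30.8 CPM in WT microglia (SD, n = 4 each). The KO libraries ran from 1192 to 1348 CPM at 6 weeks and from 1525 to 2778 CPM at 12 weeks, above every WT library, the highest of which had 629 CPM. In bulk RNA, more cells that express a gene and more RNA per cell cannot be told apart.

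The make-up of the sum differed as well. Ccl6 and Ccl9 together supplied most chemokine counts of WT microglia, Ccl6 with 48.5% at 6 weeks and 51.0% at 12 weeks and Ccl9 with 36.0% and 33.7%. In KO microglia Ccl6 supplied 34.8% at 6 weeks and 22.2% at 12 weeks, and Ccl9 19.6% and 12.9%. Ccl12 supplied 15.1% in KO and 4.16% in WT microglia at 6 weeks, and 31.0% in KO and 5.92% in WT microglia at 12 weeks. Ccl3 and Ccl4 supplied 11.4% and 11.2% of the sum in 6-week KO microglia, against 3.34% and 5.44% in 6-week WT microglia. Thus a pair of genes held most of the counts in WT microglia, and 5 genes each held over 10% of them in KO microglia at both ages. These are shares of counts and not of RNA molecules, since longer transcripts give more reads. Annotated exons span 3.045 kb for Ccl9 and 1.795 kb for Ccl6, against 0.537 kb for Ccl12.

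**Figure D2:**
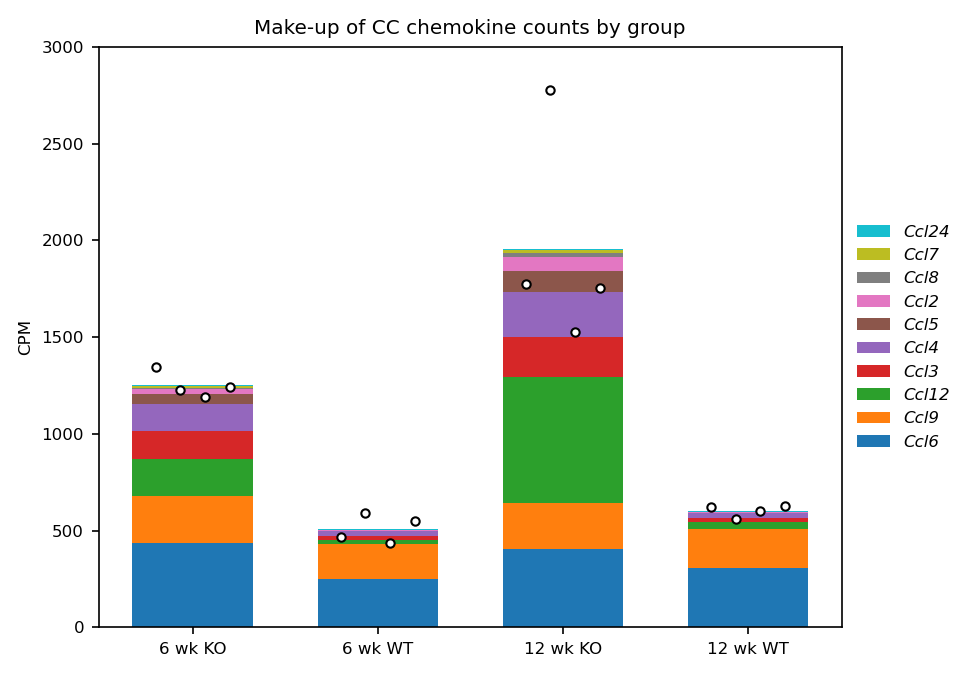
CC chemokine RNA by group in CPM, with the group means of the 10 genes stacked (n = 4 libraries) and open circles for the sum in each library. Ccl6 and Ccl9 fill most of both WT bars, and the 12-week KO replicate 2 has the highest sum, 2778 CPM.

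Per kilobase of annotated exons the order of the genes can be set out. In 12-week KO microglia the levels were 1212 CPM per kb for Ccl12, 359 for Ccl4, 268 for Ccl3, 226 for Ccl6, 108 for Ccl5 and 78 for Ccl9, followed by Ccl2 (67.7), Ccl8 (36.2), Ccl7 (20.0) and Ccl24 (4.70). The ranges of neighbours in this order overlapped except between Ccl12 and Ccl4, where the lowest Ccl12 library had 728 and the highest Ccl4 library 454 CPM per kb. In 12-week WT microglia Ccl6 stood first with 171 CPM per kb, followed by Ccl12 and Ccl9 with 66.8 each, Ccl4 with 35.7 and Ccl3 with 26.3, and the other 5 were below 7 CPM per kb. At 6 weeks Ccl12 also ranked first in KO microglia, with 353 CPM per kb, and Ccl6 first in WT microglia, with 138 CPM per kb.

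Among the monocyte chemoattractants, Ccl12 was the most abundant and Ccl8 the closest to absent in WT microglia. Ccl12, the mouse gene MCP-5, had 202, 178, 168 and 210.0 CPM in the 6-week KO libraries 1 to 4, against 20.4, 19.5, 27.7 and 14.3 CPM in the 6-week WT libraries 1 to 4. At 12 weeks it had 486, 1316, 391 and 411 CPM in KO libraries 1 to 4, against 36.5, 22.8, 46.8 and 37.4 CPM in WT libraries 3, 4, 5_6 and 8. The 4 KO libraries agreed within a narrow range at 6 weeks, and at 12 weeks replicate 2 lay far above the other 3, all of them still above every WT library. The log2 fold change was 3.19 ± 0.37 (SE) at 6 weeks, with adjusted p = 0.000305 by edgeR, and 4.17 ± 0.38 at 12 weeks, with adjusted p = 1.4e-05. Without replicate 2 the 12-week KO mean was 429 ± 50.3 CPM (n = 3), against 651 CPM with it.

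Ccl2, or MCP-1, the main attractant of monocytes that carry Ccr2, had 39.0, 30.6, 31.2 and 21.9 CPM in 6-week KO microglia, against 1.61, 3.87, 6.63 and 8.48 CPM in 6-week WT microglia. Levels at 12 weeks were 55.8, 152.5, 41.4 and 58.6 CPM in KO microglia, against 6.80, 4.83, 8.89 and 10.95 CPM in WT microglia. The groups were apart at both ages, and the same 12-week KO replicate 2 was again the highest. The fitted log2 difference was 2.57 ± 0.49 at 6 weeks (edgeR adjusted p = 0.0183) and 3.27 ± 0.49 at 12 weeks (adjusted p = 0.00119). The call at 6 weeks was lost without 6-week WT replicate 2 (adjusted p = 0.0833) and without 6-week KO replicates 1 (0.0635), 2 (0.0523) or 3 (0.0591).

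Ccl8, or MCP-2, had 32, 108, 31 and 51 reads in the 6-week KO libraries, against 0, 0, 3 and 0 reads in the 6-week WT libraries. In CPM these were 3.11, 6.20, 3.30 and 2.93 in KO microglia, against a single WT value of 0.237. At 12 weeks KO libraries held 122, 226, 153 and 151 reads, or 12.3, 24.0, 18.8 and 18.9 CPM, and WT libraries held 0, 6, 0 and 0 reads, the 6 reads being 0.569 CPM. Ccl8 was thus present in every KO library and at or within 6 reads of 0 in every WT library. Over the 6-week groups the scaled counts had a ratio of 52.9, with an exact 95% interval of 17.9 to 258.5 that covers counting error only. The fitted log2 fold changes were 5.61 ± 1.19 at 6 weeks (edgeR adjusted p = 0.0368) and 6.98 ± 1.19 at 12 weeks (adjusted p = 0.00332), values that depend on how 0 counts are treated. Of 16 refits that each left out 1 library, 4 kept the 6-week call, those without a 12-week WT library, and leaving out any library of the other 3 groups ended it, with adjusted p up to 0.145. All 16 refits kept the 12-week call.

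Ccl7, or MCP-3, had 5.74, 4.48, 9.90 and 7.58 CPM in 6-week KO microglia, against 0.538, 0, 0.868 and 2.42 CPM in 6-week WT microglia. The 12-week libraries had 2.62, 38.7, 7.002 and 15.8 CPM in KO microglia, against 0, 2.09, 0 and 0 CPM in WT microglia. The groups did not overlap at either age, but the KO libraries at 12 weeks were widely spread. It did not pass the test, with a log2 fold change of 3.17 ± 1.33 at 6 weeks (edgeR adjusted p = 0.559) and 5.05 ± 1.43 at 12 weeks (adjusted p = 0.0737). Without 12-week WT replicate 4, which held the reads of that group, the 12-week difference passed (adjusted p = 0.0078), as it did by DESeq2 (adjusted p = 0.00118). With no filter on low counts, edgeR called Ccl7 at both ages (adjusted p = 0.00869 at 6 weeks and 4.95e-07 at 12 weeks). Without 12-week KO replicate 2 the KO mean at 12 weeks was 8.46 CPM, against 16.03 CPM with it.

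Ccl3, Ccl4 and Ccl5 all rose at both ages. Ccl4, or MIP-1 beta, had 154, 138, 113 and 157 CPM in 6-week KO microglia, against 27.7, 37.2, 27.6 and 17.7 CPM in 6-week WT microglia. Its 12-week levels were 227, 299.9, 195 and 225 CPM in KO microglia, against 25.1, 24.9, 27.9 and 16.3 CPM in WT microglia. The KO libraries of each age lay close together, with a wide gap to the highest WT library. The log2 fold change was 2.35 ± 0.23 at 6 weeks (edgeR adjusted p = 6.26e-05) and 3.33 ± 0.24 at 12 weeks (adjusted p = 8.23e-07).

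Ccl3, or MIP-1 alpha, had 185, 144, 116 and 127 CPM in 6-week KO microglia, against 19.6, 23.8, 16.4 and 7.63 CPM in 6-week WT microglia. At 12 weeks it had 204, 202.5, 164 and 249.5 CPM in KO microglia, against 5.61, 20.4, 18.3 and 36.2 CPM in WT microglia. The KO libraries lay close together while WT libraries varied more in proportion, and the 12-week KO replicate 2 was in the middle of its group here. The fitted log2 difference was 3.04 ± 0.42 at 6 weeks (edgeR adjusted p = 0.00144) and 3.39 ± 0.42 at 12 weeks (adjusted p = 0.000229).

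Ccl5, or RANTES, a chemokine of many activated immune cells, had 45.2, 44.2, 54.1 and 56.2 CPM in 6-week KO microglia, against 0.430, 1.14, 2.29 and 0.484 CPM in 6-week WT microglia. Levels at 12 weeks were 104, 210.9, 49.1 and 49.9 CPM in KO microglia, against 1.62, 0.569, 0 and 0 CPM in WT microglia. The WT libraries held at most 29 reads each, and all KO libraries held 399 or more. The log2 fold change was 5.56 ± 0.81 at 6 weeks (edgeR adjusted p = 0.00198) and 7.92 ± 0.92 at 12 weeks (adjusted p = 0.000142). Its WT means rest on few reads, since the 6-week mean was 1.09 CPM with and 0.685 CPM without replicate 3, and the 12-week mean 0.547 CPM with and 0.190 CPM without replicate 3. The 12-week KO mean was 104 CPM with and 67.8 CPM without replicate 2.

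Ccl6, a rodent chemokine of macrophages, had 419, 433, 485 and 400.2 CPM in 6-week KO microglia, against 219.5, 281, 207 and 285 CPM in 6-week WT microglia. The 12-week libraries had 418, 333, 421 and 452 CPM in KO microglia, against 318, 285, 317 and 309 CPM in WT microglia. It was the gene with the most reads of the family in WT microglia, and the KO libraries were above the WT libraries by a narrower margin than for the genes above. The fitted log2 difference was 0.81 ± 0.12 at 6 weeks (edgeR adjusted p = 0.00239) and 0.40 ± 0.12 at 12 weeks, where it did not pass (adjusted p = 0.0925). By DESeq2 the 12-week difference passed (adjusted p = 0.0235), and it also passed without 6-week WT replicate 3 (edgeR adjusted p = 0.0455).

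Ccl9, the neighbour of Ccl6, had 208 to 288 CPM in 6-week KO and 140.1 to 220.5 CPM in 6-week WT microglia. Its 12-week levels were 199.7 to 263 CPM in KO and 182.5 to 223.5 CPM in WT microglia. The groups overlapped at both ages. The log2 fold change was 0.41 ± 0.15 at 6 weeks (edgeR adjusted p = 0.404) and 0.22 ± 0.15 at 12 weeks (adjusted p = 0.571).

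Ccl24 was low in all groups, with 7.0, 11.9, 2.56 and 7.46 CPM in 6-week KO and 5.81, 7.29, 5.45 and 5.93 CPM in 6-week WT microglia. At 12 weeks it had 6.45, 1.38, 7.62 and 8.88 CPM in KO and 3.56, 7.20, 0.438 and 2.95 CPM in WT microglia. The groups overlapped, and the 12-week KO replicate 2, the highest for 6 other genes, was the lowest here. The fitted log2 difference was 0.25 ± 0.71 at 6 weeks with an edgeR adjusted p of 1, and 0.78 ± 0.72 at 12 weeks, with an adjusted p of 0.734. Those standard errors span differences in either direction at 6 weeks, and the 12-week test does not settle the direction either.

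**Figure D3:**
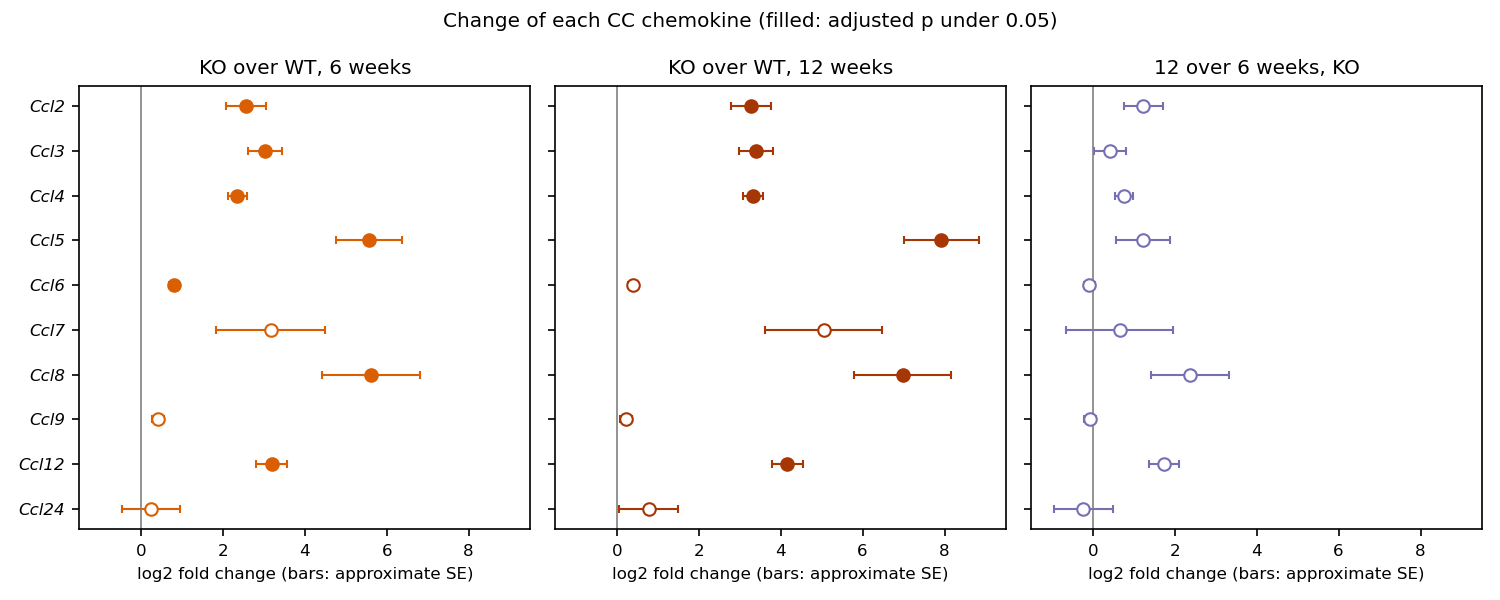
Fitted log2 fold change of each CC chemokine for KO over WT microglia at 6 weeks (left) and 12 weeks (middle) and for 12 over 6 weeks in KO microglia (right), with bars of 1 approximate standard error (edgeR, n = 4 libraries per group). Filled points have an adjusted p under 0.05. Ccl5 and Ccl8 have the highest KO over WT values, Ccl7 and Ccl8 the widest bars, and no point of the right panel is filled.

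Between ages, no chemokine passed the edgeR test in KO or in WT microglia with low counts filtered, although several KO levels were higher at 12 weeks. In KO microglia 0 of the 10 genes were called between 12 and 6 weeks by edgeR, where 0.0234% of all genes were called. At an unadjusted p under 0.05 there were 4, where 8.80% of all genes were under it, and by DESeq2 2 passed, Ccl12 (adjusted p = 0.00135) and Ccl4 (adjusted p = 0.0217). With no filter edgeR called 4, Ccl12, Ccl5, Ccl4 and Ccl2, all higher at 12 weeks. The 12-week and 6-week KO libraries did not overlap for 4 genes, all higher at 12 weeks, where 3.05% of all genes were so separated. These were Ccl12, with a log2 difference of 1.74 ± 0.35 (edgeR adjusted p = 0.12), Ccl8 with 2.37 ± 0.95 (0.479), Ccl2 with 1.23 ± 0.48 (0.455) and Ccl4 with 0.75 ± 0.22 (0.267). For Ccl2, Ccl5, Ccl7 and Ccl12, the mean at 12 weeks includes the high replicate 2. The sums of the 10 genes over the libraries were nevertheless apart, the lowest 12-week KO library having 1525 CPM and the highest 6-week KO library 1348 CPM.

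In WT microglia 0 of the 10 were called between 12 and 6 weeks by edgeR, where 0.0117% of all genes were called, with 1 at an unadjusted p under 0.05 (7.44% of all genes were under it) and 0 by DESeq2. At that share 1 of 10 genes is near the background. That gene was Ccl6, with a log2 difference of 0.32 ± 0.12 (adjusted p = 0.538), and it was also the single gene whose WT libraries did not overlap between ages, as 2.31% of all genes did with 12 weeks higher. With no filter edgeR called Ccl12 instead (log2 difference 0.74, adjusted p = 0.0093). The KO against WT difference itself was compared between ages in the same fit. There 0 of the 10 were called by edgeR, where 0.00585% of all genes were called, with 2 at an unadjusted p under 0.05 (4.74% of all genes were under it) and 0 by DESeq2. Ccl4 had a log2 fold change larger by 0.98 ± 0.31 at 12 than at 6 weeks (adjusted p = 0.932), and that of Ccl6 was different by -0.40 ± 0.17 (adjusted p = 1). For Ccl12 the value was 0.98 ± 0.48 and for Ccl5 2.36 ± 1.13 (adjusted p = 1 each). Standard errors of this difference reached 1.85, for Ccl8. The calls depended on the filter, since with no filter on low counts edgeR called 2 of the 10, Ccl5 (2.39, adjusted p = 0.00249) and Ccl12 (1.01, adjusted p = 0.0106).

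The 12-week KO replicate 2, a male, had the highest level in its group for 6 of the 10 genes (Ccl2, Ccl4, Ccl5, Ccl7, Ccl8 and Ccl12) and the lowest for 3 (Ccl6, Ccl9 and Ccl24). Its Ccl12 level of 1316 CPM compared with 391 to 486 CPM in the other 3 libraries, and its Ccl2 level of 152.5 CPM with 41.4 to 58.6 CPM. For Ccl8 and Ccl4 the step was smaller, at 24.0 CPM against 12.3 to 18.9 CPM and 299.9 CPM against 195 to 227 CPM. It held 9454328 counts, within the range of its group, and 0.585% mitochondrial counts, also within it.

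Of the other 14 CC chemokine genes looked up, 3 had enough reads to be tested, and 0 were called by edgeR at either age. At an unadjusted p under 0.05 there was 1 at each age, and DESeq2 called 0 at 6 weeks and 1 at 12 weeks, which was Ccl22 in each case. Of all tested genes, 7.31% at 6 weeks and 14.4% at 12 weeks had an unadjusted edgeR p under 0.05 for KO against WT. DESeq2 called 2.14% and 6.78% of them, and the same shares are the background for the other gene lists. Ccl22, a ligand of Ccr4, had 46, 55, 25 and 0 reads in the 6-week KO libraries and 70, 50, 0 and 2 reads in the 12-week KO libraries, against 0 reads in all 8 WT libraries. Its KO libraries thus included 2 with no read, and the edgeR adjusted p was 0.406 at 6 weeks and 0.173 at 12 weeks. Ccl25 had 9.42 CPM in KO and 12.7 CPM in WT microglia at 6 weeks and 11.8 CPM in KO and 15.0 CPM in WT microglia at 12 weeks, and Ccl27a had 6.31 to 7.23 CPM as group means. Ccl11 and Ccl1, which sit beside the genes that rose, had no read in any library.

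No CC receptor gene passed the edgeR test with a higher level in KO microglia, while DESeq2 called 1 higher, Ccrl2 at 12 weeks (adjusted p = 0.0124). Of 14 such genes, 8 were tested, and 0 were called at 6 weeks by edgeR, with 1 at an unadjusted p under 0.05 and 0 by DESeq2. At 12 weeks 1 fell and none rose by edgeR, and DESeq2 called 2, with Ccr6 lower and Ccrl2 higher. The median log2 fold change of the 8 was -0.30 at 6 weeks and 0.05 at 12 weeks, beside -0.02 and -0.03 over all tested genes. Ccr6, the receptor of Ccl20, a ligand with no read in any library, had 277, 293.5, 252 and 289 CPM in 6-week KO microglia, against 320.3, 317, 379 and 371 CPM in 6-week WT microglia. Levels at 12 weeks were 221, 214, 206 and 246 CPM in KO microglia, against 348, 431, 344 and 371 CPM in WT microglia. The groups were apart at both ages, and the log2 fold change was -0.32 ± 0.10 at 6 weeks (edgeR adjusted p = 0.258) and -0.75 ± 0.10 at 12 weeks (adjusted p = 0.000428).

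Ccr1, the receptor of Ccl3, Ccl5, Ccl6 and Ccl9, averaged 80.4 CPM in KO and 94.4 CPM in WT microglia at 6 weeks, and 81.2 CPM in KO and 89.4 CPM in WT microglia at 12 weeks. Its log2 fold change was -0.28 ± 0.18 and -0.15 ± 0.18 (edgeR adjusted p = 0.9 and 0.826). Ccr2, the receptor of Ccl2, averaged 12.6 CPM in KO and 6.05 CPM in WT microglia at 6 weeks, and 9.83 CPM in KO and 4.14 CPM in WT microglia at 12 weeks (adjusted p = 0.865 and 0.467). The cells were sorted as Ly6c-negative, a gate that leaves out classical monocytes, which carry Ccr2. Ccr3, the receptor of Ccl24, averaged 1.28 CPM in KO and 4.90 CPM in WT microglia at 6 weeks, and 2.18 CPM in KO and 5.66 CPM in WT microglia at 12 weeks (adjusted p = 0.906 and 0.891), and it had no read in 4 of the 16 libraries. Ccrl2, an atypical receptor that presents chemerin, averaged 46.2 CPM in KO and 15.7 CPM in WT microglia at 12 weeks, with overlapping groups and an adjusted p of 0.102.

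**Figure D4:**
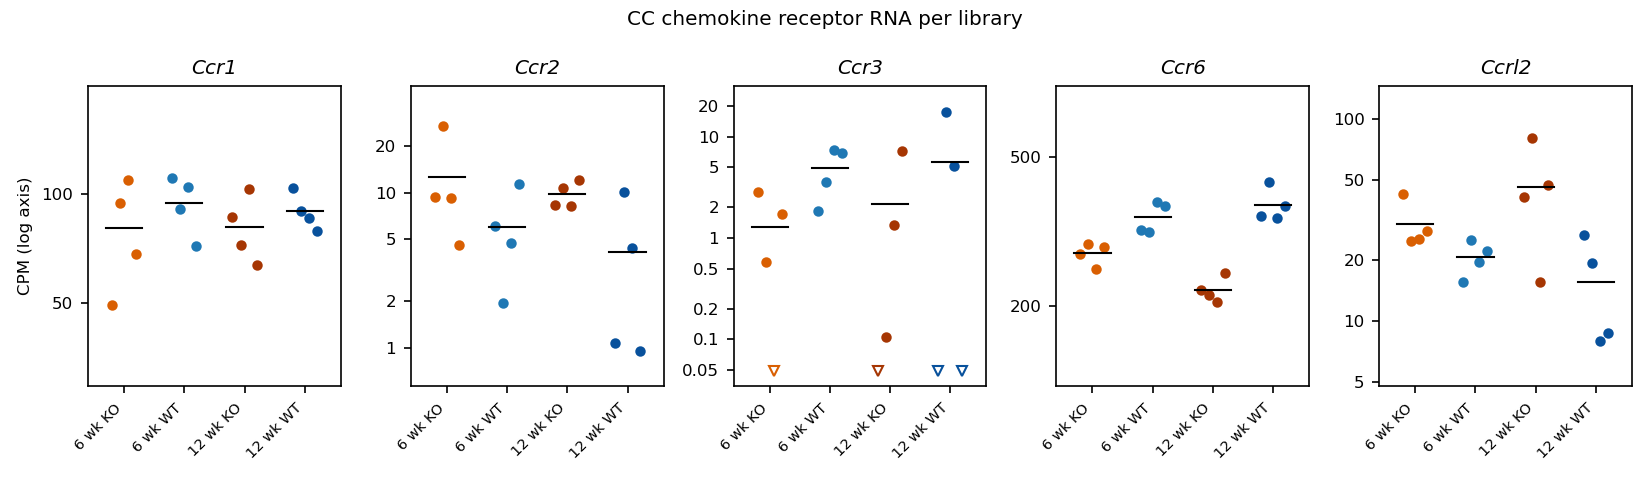
RNA of CC chemokine receptors in each of the 16 libraries, in CPM on log axes that differ in range between panels. Points are libraries, black lines are group means (n = 4), and open triangles are libraries with 0 counts. For Ccr6 every KO library lies below every WT library of the same age.

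NF-kB and interferon signalling are known to drive transcription of CC chemokine genes. Of 14 tested NF-kB subunits and feedback genes, 0 were called at 6 weeks by edgeR, with 2 at an unadjusted p under 0.05 and 1 by DESeq2, and 2 rose at 12 weeks. DESeq2 called 3 at 12 weeks, these 2 higher and Chuk lower (adjusted p = 0.0309). The 2 were Nfkbia, the inhibitor that NF-kB itself induces, with 212 CPM in KO and 95.6 CPM in WT microglia (log2 fold change 1.15 ± 0.16, edgeR adjusted p = 0.000605), and Nfkbiz, a nuclear inhibitor family member, with 30.2 CPM in KO and 8.06 CPM in WT microglia (1.92 ± 0.49, adjusted p = 0.0488). At 6 weeks Nfkbia, the DESeq2 call of that age, had 163 CPM in KO and 104 CPM in WT microglia, with the groups apart (0.64 ± 0.16, edgeR adjusted p = 0.0863). Nfkbiz was at 12.7 CPM in KO and 18.7 CPM in WT microglia at 6 weeks (-0.57 ± 0.48, edgeR adjusted p = 0.985). The subunit genes Nfkb1, Nfkb2, Rel, Rela and Relb did not pass at either age. The median log2 fold change of the list was 0.15 at 6 weeks and 0.37 at 12 weeks.

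Of 13 interferon pathway factors, 1 rose at 6 weeks and 3 at 12 weeks by edgeR, and none fell. DESeq2 called 2 at 6 weeks, Irf7 and Irf9, both higher. At 12 weeks it called 6, with Irf1, Irf7, Irf9, Stat2 and Ifngr2 higher and Ifngr1, a chain of the interferon gamma receptor, lower (1424 CPM in KO and 1900 CPM in WT microglia, DESeq2 adjusted p = 0.0132, edgeR adjusted p = 0.0593). Irf7, a transcription factor induced by type I interferon, had 48.0 CPM in KO and 7.10 CPM in WT microglia at 6 weeks and 99.0 CPM in KO and 2.42 CPM in WT microglia at 12 weeks (edgeR adjusted p = 0.0266 and 0.000152). Irf9 and Stat2, subunits of the complex that binds the interferon-stimulated response element, rose at 12 weeks (adjusted p = 0.00396 and 0.0102). The median log2 fold change of the list was 0.07 at 6 weeks and 0.34 at 12 weeks.

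Immediate early genes, which are known to rise during tissue dissociation together with Ccl3 and Ccl4, were counted as well. The cells had been isolated mechanically in the cold. Of 17 tested, 0 were called at 6 weeks by edgeR, with 4 at an unadjusted p under 0.05 and 1 by DESeq2 (Egr1), and 1 rose at 12 weeks. This was Atf3, with 33.3 CPM in KO and 10.9 CPM in WT microglia (log2 fold change 1.63 ± 0.42, adjusted p = 0.0479). At 6 weeks Atf3 averaged 41.8 CPM in KO and 19.5 CPM in WT microglia, with no overlap of the libraries (edgeR adjusted p = 0.486). The median log2 fold change of the 17 genes was 0.42 at 6 weeks and 0.04 at 12 weeks, beside -0.02 and -0.03 over all tested genes. The summed level of the 20 listed genes averaged 1380 CPM in KO and 1476 CPM in WT microglia at 6 weeks, and 1255 CPM in KO and 1235 CPM in WT microglia at 12 weeks. DESeq2 called 2 at 12 weeks, Atf3 and Egr2, both higher. Egr2 averaged 19.9 CPM in KO and 4.79 CPM in WT microglia at 6 weeks and 28.2 CPM in KO and 2.52 CPM in WT microglia at 12 weeks (edgeR adjusted p = 0.67 and 0.107). Egr1 averaged 21.0 CPM in KO and 5.13 CPM in WT microglia at 6 weeks and 11.1 CPM in KO and 7.71 CPM in WT microglia at 12 weeks (edgeR adjusted p = 0.106 and 0.806). Fos was at 3.52 CPM in KO and 0.920 CPM in WT microglia at 6 weeks and 5.64 CPM in KO and 2.88 CPM in WT microglia at 12 weeks, while Jun averaged 155 CPM in KO and 173 CPM in WT microglia at 6 weeks and 92.8 CPM in KO and 92.5 CPM in WT microglia at 12 weeks. The part of handling in the Ccl3 and Ccl4 differences was not tested.

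Markers of other chemokine-producing cells were also measured. Of 14 markers of border-associated macrophages, 13 had a positive log2 fold change at each age, with medians of 1.96 at 6 weeks and 2.0 at 12 weeks. By edgeR 0 were called at 6 weeks, with 7 at an unadjusted p under 0.05 and 2 by DESeq2, and 2 rose at 12 weeks. They were Ms4a7 (22.0 CPM in KO and 1.87 CPM in WT microglia, adjusted p = 0.0364) and Cd38 (6.26 CPM in KO and 0 reads in all 12-week WT libraries, adjusted p = 0.0231). The lowest 12-week KO library also had 0 CPM of Cd38, and 6-week WT microglia averaged 2.22 CPM. At 12 weeks 9 had an unadjusted p under 0.05, and DESeq2 called 7, with Cd163, Ms4a7, Mrc1, Cd38, Pf4 and Cd209f higher and Stab1 lower. The summed level of the 14 markers was 331 to 529.5 CPM in KO and 261 to 333 CPM in WT microglia at 6 weeks. At 12 weeks it was 299 to 393 CPM in KO and 226 to 284 CPM in WT microglia. Stab1, whose log2 fold change was negative at both ages, held the largest part of this sum in every group. It averaged 184 CPM in KO and 229 CPM in WT microglia at 6 weeks, and 142 and 216 CPM at 12 weeks. Among the defining markers, Mrc1 averaged 66.8 CPM in KO and 25.8 CPM in WT microglia at 6 weeks and 57.0 CPM in KO and 13.4 CPM in WT microglia at 12 weeks, and Cd163 had 11.1 CPM in both KO groups, against 1.55 CPM and 0.355 CPM in 6-week and 12-week WT microglia. Siglec1 was at 0 in all 6-week WT libraries and also in the lowest 6-week KO library, where the KO mean was 1.56 CPM. At 12 weeks it averaged 3.02 ± 5.63 CPM in KO and 1.605 ± 3.21 CPM in WT microglia (SD, edgeR adjusted p = 0.917). Mrc1 and Cd163 had higher means in KO than in WT microglia at both ages, as all 10 chemokines did. Between 12 and 6 weeks in KO microglia, 6 of the 14 markers had a positive log2 difference, with a median of -0.03. Ms4a7 (17.0 to 22.0 CPM) and Pf4 (7.08 to 9.90 CPM) had higher means at 12 weeks. The means of Mrc1, of Stab1 (184 to 142 CPM) and of the marker sum were lower. The part of these markers in the chemokine differences was not tested.

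Of 8 monocyte markers 3 were tested, and 0 were called by edgeR at either age, with 0 at 6 weeks and 2 at 12 weeks at an unadjusted p under 0.05 and by DESeq2. Their summed level was 9.93 to 36.6 CPM in KO and 6.47 to 18.7 CPM in WT microglia at 6 weeks, and 15.0 to 31.5 CPM in KO and 1.08 to 12.7 CPM in WT microglia at 12 weeks. All 3 tested markers had a positive log2 fold change at each age, with medians of 1.51 at 6 weeks and 3.49 at 12 weeks. The DESeq2 calls at 12 weeks were Fn1 (adjusted p = 0.000447) and Plac8 (adjusted p = 0.00106), both higher in KO microglia. Ly6c2 had no read in any KO library, and the sort itself had left out Ly6c-positive cells. Of 15 markers of T and NK cells, which are major sources of Ccl5, 1 was tested, 8 were at 0 in 6-week KO microglia and 12 in each of the other groups, and Cd2, Trbc2, Cd8a, Gzmb, Nkg7 and Ncr1 had no read in any library. Their summed level was 3.19 to 8.43 CPM in KO and 3.98 to 7.63 CPM in WT microglia at 6 weeks, and 0 to 9.58 CPM in KO and 4.46 to 10.95 CPM in WT microglia at 12 weeks. Other markers of the list did have reads in KO libraries, with up to 5.41 CPM of Cd4, 4.18 CPM of Klrd1, 3.73 CPM of Klrb1c, 1.65 CPM of Cd3e, 0.402 CPM of Cd3g and 0.194 CPM of Trac, beside a Ccl5 level of 44.2 CPM or more in each KO library. Klrd1, the tested marker, averaged 2.24 CPM in KO and 4.77 CPM in WT microglia at 6 weeks and 1.99 CPM in KO and 6.99 CPM in WT microglia at 12 weeks (edgeR adjusted p = 0.975 and 0.36). The part of these cells in the Ccl5 difference was not tested. Of 8 markers of mast cells and eosinophils, 2 were tested, and by edgeR 0 were called at 6 weeks and 1 rose at 12 weeks. DESeq2 called Siglecf higher at both ages (adjusted p = 0.00261 and 2.93e-06). Their summed level was 77.3 to 118 CPM in KO and 26.0 to 36.9 CPM in WT microglia at 6 weeks. At 12 weeks it was 61.9 to 129 CPM in KO and 8.67 to 51.3 CPM in WT microglia. The part of these markers in the chemokine differences was not tested.

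The genes whose levels followed each chemokine most closely were taken from 9839 genes with a mean of at least 5 CPM, by Pearson's r of log2(CPM + 1) over all 16 libraries. These values describe libraries that share the KO and WT groups, and so carry the group difference in each gene. Ccl12 was most like B2m (r = 0.984), H2-K1 (0.977) and Rtp4 (0.971), and Ccl5 most like Il1rn (0.98), H2-D1 and H2-K1 (0.978 each). Ccl4 was most like Cd74 (0.98), Ccl5 (0.976) and Lgals3 (0.975), so that another of the 10 chemokines was among its 3 nearest genes. Ccl2 was most like Ifi209 (0.968), B2m (0.96) and Ifit2 (0.958), and Ccl8 most like Cd84 (0.964), H2-K1 (0.962) and H2-M3 (0.96). Genes of major histocompatibility complex class I chains thus stood among the nearest genes of Ccl12, Ccl5, Ccl2 and Ccl8. Ccl3 was nearest to Lilrb4a (0.956), Smim3 and Cd63 (0.952 each). Ccl6 had lower values, with Cadm1 (0.886), Pdcd1 (0.867) and Tacc3 (0.858) as the nearest.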

How the data were processed

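The authors deposited 1 table per library with raw read counts per gene, and these counts were used as deposited. The submitters' processing notes list, without roles, HTSeq 0.11.0, TopHat, cutadapt 2.10, Picard 2.13.2, SAMtools 1.10 and FastQC 0.11.9, and the build GRCm39. No source used here states the gene annotation, whether counting used strand, or what was done with multiply mapped reads. Depth was 7882182 to 22142972 counts per library, and intervals cover counting error only.

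Genes were kept by filterByExpr over the 4 groups (minimum count 10), scaled by TMM and tested with the quasi-likelihood F test of edgeR 4.0.16 (R 4.3.3), two-sided. All 16 libraries entered a single fit with a term for each group and for sex, and p-values were adjusted over 17090 genes by Benjamini-Hochberg (threshold 0.05). Standard errors are the log2 fold change divided by the root of F. The procedure was tested on simulated data. DESeq2 1.42.0, other scalings and filters and left-out libraries were alternatives. All 10 members were named, and other genes came from fixed lists, or as the 3 nearest by correlation. Members and lists were chosen with earlier results of these data known. Exon lengths and gene order came from GENCODE M21 and promoters from RefSeq (GRCm38.p6), matched by symbol. A few genes of the fixed lists are not reported here, and the counts over those lists leave them out.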

Additional observations from a re-analysis of the deposited data

Results flagged for a closer look

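Of 40 sets of 4 libraries (10 genes in 4 groups), 6 held a library whose gap to the nearest other library, as a share of the whole range, exceeded Dixon's 95% critical value for 4 samples, and about 1 set in 20 would do so by chance alone. The 12-week KO replicate 2 stood out for Ccl12, with 1316 CPM against 391 to 486 CPM in the other 3 libraries, and for Ccl2, with 152.5 CPM against 41.4 to 58.6 CPM. The 6-week KO replicate 2 stood out for Ccl8, with 6.20 CPM against 2.93 to 3.30 CPM. The other 3 sets were WT libraries where a single library held reads and the rest had none. They were 6-week WT replicate 3 for Ccl8 with 0.237 CPM, 12-week WT replicate 4 for Ccl8 with 0.569 CPM, and the same replicate 4 for Ccl7 with 2.09 CPM.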

How the results depend on the processing

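Ccl3, Ccl4, Ccl5 and Ccl12 kept the direction and the call of their KO against WT differences at both ages in all 16 refits without 1 library and under the other alternatives. The number of the 10 genes called ran from 5 to 8 at 6 weeks and from 4 to 8 at 12 weeks. Where a call or a count moved, the cause was not tested. Genes called over the whole table numbered 353 at 6 weeks, 1073 at 12 weeks, 204 between ages in KO, 194 between ages in WT and 132 for the difference of the KO effects with no filter on low counts, where 4, 1 and 2 of the 10 chemokines were called in the last 3. By DESeq2 the numbers were 366, 1158, 270, 152 and 55, and 2 chemokines differed between ages in KO. With total count scaling 2 genes were called for the difference of the KO effects, and with no sex term 16 were called between ages in KO. With only the groups compared in the fit, 204 genes were called at 12 weeks, 0 between ages in KO and 0 between ages in WT.

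In refits without 1 library, genes called numbered 82 to 155 at 6 weeks, 328 to 464 at 12 weeks, 1 to 7 between ages in KO, 1 to 4 between ages in WT and 1 to 2 for the difference of the KO effects. The log2 values that changed sign among these refits ran from -0.15 to 0.54 for Ccl24 at 6 weeks and, between ages in KO, from -0.13 to 0.0034 for Ccl6, -0.11 to 0.015 for Ccl9 and -0.48 to 0.13 for Ccl24. Between ages in WT they ran from -0.34 to 0.54 for Ccl3 and from -2.62 to 3.69 for Ccl8, and for the difference of the KO effects from -1.41 to 5.11 for Ccl8.

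Alternatives added after seeing the data gave 307 genes at 12 weeks, 10 between ages in KO and 2 for the difference of the KO effects without 12-week WT replicates 3 and 8. With 12-week KO replicate 4 also left out, 251 were called at 12 weeks, 1 between ages in KO and 1 between ages in WT, and Ccl8 at 12 weeks no longer passed (adjusted p = 0.0653). Under these alternatives Ccl9 between ages in WT was -0.062 and -0.060. Without the library 5_6 and the sex term, 12 genes were called between ages in KO.

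Whether replicate numbers pair the libraries cannot be decided here, since correlations near 0 do not exclude a shared litter or day. Deviations from the group mean correlated between -0.01 and 0.06 for same-numbered KO and WT libraries, and between -0.06 and 0.04 for differently numbered ones. With replicate number as a block, 94 genes were called at 6 weeks and 68 at 12 weeks, and 5 and 4 of the 10 chemokines. At 12 weeks only the numbers 3 and 4 occurred in both genotypes, so the 12-week KO effect of that fit rested on them alone. Under the block the Ccl2 adjusted p was 0.0797 at 6 weeks and 0.138 at 12 weeks, that of Ccl8 0.12 and 0.158, and the age difference of the KO effect on Ccl5 was -0.035.

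Depth limits Ccl7, Ccl8 and Ccl5 most, since WT libraries held 0 to 29 reads of each, and 3 reads equal 0.131 to 0.375 CPM over the 16 libraries.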
